A study of Mus musculus with 2 samples.

Results

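The cells described here are islet cells that carried Ppy, the mRNA of pancreatic polypeptide, with little insulin or somatostatin mRNA. They were chosen by their own counts in the 2 libraries. A cell was a member if it held at least 1000 UMIs (unique molecular identifiers, each standing for 1 captured mRNA molecule), if at most 20% of these came from mitochondrial genes, and if Ppy made up at least 3% of all UMIs, Ins1 plus Ins2 under 3% and Sst under 1%. This gave 51 Tg7 and 26 Wild-type cells, 77 of the 1761 cells that passed the 2 quality limits. They were split at a Gcg share of 4% into 48 Gcg-high cells, 32 Tg7 and 16 Wild-type, which carried glucagon mRNA beside Ppy, and 29 Gcg-low cells, 19 Tg7 and 10 Wild-type, which carried little or none. Ppy, insulin, Sst and Gcg were thus selected on, and their values below are a description of the choice.

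The study asked how the loss of β-cell identity affects gene expression across the islet. In Tg7 mice the microRNA miR-7a2 is overexpressed in β-cells, and 12-week-old Tg7 males, diabetic at this age, were set against Wild-type littermate males of the same age and strain (C57Bl6). As the study describes, mice of both groups also carried a tdTomato reporter that a rat insulin promoter Cre switches on in β-cells. Islets were released with Liberase, dissociated and run as single cells on the 10x Genomics platform, with 1 library per group. How many mice went into each library is not stated in the labels or methods. With 1 library per group no difference below has a replicate check and no p-value was computed. All intervals are exact 95% intervals that cover counting error only.

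Pancreatic polypeptide is made by the PP cells, or γ-cells, a scarce endocrine type that in rodents is concentrated in the part of the pancreas that forms from the ventral bud. The peptide acts through the Y4 receptor to slow pancreatic secretion and feeding, and its closest relative, peptide YY, is encoded by the neighbouring gene Pyy and occurs in several islet cell types. Single cells that hold the mRNAs of more than one islet hormone are known in rodent islets.

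The start regions of the 3 genes whose mRNAs fill these cells are shown because Ppy and Pyy, which moved together from cell to cell, lie side by side on chromosome 11, with 5356 bases between them, while Gcg lies on chromosome 2. Each sequence is the 250 bases before the annotated start, 5′ to 3′ on the gene's own (minus) strand, from RefSeq on GRCm38.p6, the assembly of the mm10 build that the libraries were aligned to. Capitals mark the TATAA motif.
Ppy, chr11:102101320-102101569: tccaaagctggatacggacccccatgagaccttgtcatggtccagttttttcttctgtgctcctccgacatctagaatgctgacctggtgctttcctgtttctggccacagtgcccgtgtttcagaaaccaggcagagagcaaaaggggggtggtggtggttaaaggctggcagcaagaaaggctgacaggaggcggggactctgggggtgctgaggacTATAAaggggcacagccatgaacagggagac
Pyy, chr11:102107833-102108082: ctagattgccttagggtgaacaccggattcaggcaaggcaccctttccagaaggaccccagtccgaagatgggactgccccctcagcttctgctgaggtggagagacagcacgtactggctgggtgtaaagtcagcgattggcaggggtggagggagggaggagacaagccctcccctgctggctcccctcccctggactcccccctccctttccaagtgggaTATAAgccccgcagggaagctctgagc
Gcg, chr2:62483654-62483903: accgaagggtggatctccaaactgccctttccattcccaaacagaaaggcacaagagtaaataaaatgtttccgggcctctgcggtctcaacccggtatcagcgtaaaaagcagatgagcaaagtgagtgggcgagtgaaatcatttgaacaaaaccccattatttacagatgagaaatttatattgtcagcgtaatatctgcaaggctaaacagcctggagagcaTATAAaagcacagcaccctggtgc
The capitalised TATAA begins 31 bases before the start of Ppy, 27 before that of Pyy and 24 before that of Gcg. Gcg holds 1 further match on the other strand, 71 bases before its start. On either strand TATAA occurs in 23.5% of 27025 annotated promoters of this length. The homeodomain core TAAT (both strands) was found 2 times for Gcg and not for Ppy or Pyy, against 55.3% of all promoters with a match. The E-box CANNTG (both strands) was found 3 times for Gcg, 1 time for Pyy and not for Ppy, against 66.0% of all promoters. A match of letters is a description and was not tied to binding of any factor.

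The Tg7 library held 1123 barcodes with 29931777 UMIs, of which 1006 passed the quality limits, and the Wild-type library held 855 barcodes with 30829078 UMIs, of which 755 passed. No barcode was shared between them. Of the barcodes that failed, 1 Tg7 and 2 Wild-type barcodes had Ppy at 3% or more. The Ppy cells had similar depth in the libraries, with a median of 20023 UMIs in Tg7 (3575 to 53974) and 16851.5 in Wild-type (7492 to 37420), and medians of 9066 and 8647 UMIs outside the hormone genes. Depth differed between their Gcg classes in opposite directions: the medians were 22064 UMIs in Gcg-high and 15554 in Gcg-low Tg7 cells, and 16371 in Gcg-high and 21400 in Gcg-low Wild-type cells. Median mitochondrial shares were 3.53% in Tg7 and 3.39% in Wild-type. Scrublet, a doublet caller, marked 1 Ppy cell in each library, both Gcg-low, and these were kept. Of non-endocrine markers, none of 13 acinar genes was detected in any Ppy cell, and endothelial genes gave 0 to 2 UMIs per class and library. Immune markers other than C1qa were concentrated in 1 Tg7 cell described below, while C1qa had a UMI in 32 of 51 Tg7 and 14 of 26 Wild-type Ppy cells. The 10 mesenchymal and glial genes summed to 12 UMIs in Gcg-low and 22 in Gcg-high Tg7 cells, and to 2 and 0 in Wild-type. The β-cell reporter tdTomato had no UMI in any Ppy cell. Of 7 ductal markers Krt19, Cftr and Mmp7 were at 0, but the list was high through Spp1 and Krt7, summing to 7.54 UMIs per 10000 non-hormone UMIs in Gcg-high and 21.2 in Gcg-low Tg7 cells, and to 2.96 and 17.8 in the same classes of Wild-type. Krt7 had a UMI in 43 of 51 Tg7 and 21 of 26 Wild-type Ppy cells, and also in 496 of 540 and 446 of 483 β-cells. The part of depth and of these markers in the results was not tested.

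Ppy cells made up 5.07% of Tg7 cells (51 of 1006, 3.80% to 6.61%) and 3.44% of Wild-type cells (26 of 755, 2.26% to 5.01%), and these intervals overlap, but with a Ppy limit of 1% they did not, at 8.05% (6.45% to 9.91%) and 4.11% (2.81% to 5.78%). By number of cells the Gcg-high share was alike, 62.7% of the Tg7 Ppy cells (48.1% to 75.9%) and 61.5% of the Wild-type ones (40.6% to 79.8%). Below the 3% limit the libraries differed more. Among cells under the insulin and Sst limits, Ppy lay between 1% and 3% of UMIs in 30 of 264 Tg7 cells (11.4%, 7.80% to 15.8%) and in 5 of 201 Wild-type cells (2.49%, 0.813% to 5.71%), and 25 of the 30 Tg7 cells carried Gcg at 4% or more. The Ppy limit thus cut through a run of Tg7 cells and fell in a gap among Wild-type cells: the nearest values inside and outside were 3.0% and 2.93% in Tg7, but 3.05% and 1.55% in Wild-type. The insulin and Sst limits fell in gaps. Insulin reached 2.67% in a Tg7 and 0.396% in a Wild-type member, and the lowest excluded Ppy-positive cells had 6.10% and 5.98%. Sst reached 0.0947% in Tg7 and 0.00717% in Wild-type members, and the lowest excluded cells had 1.92% and 3.47%. For the Gcg split, the lowest Gcg-high and the highest Gcg-low cells had 5.96% and 0.465% in Tg7. In Wild-type they lay closer, at 4.64% and 3.20%, and a split at 1% would count the latter cell as Gcg-high (17 of 26).

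**Figure D1:**
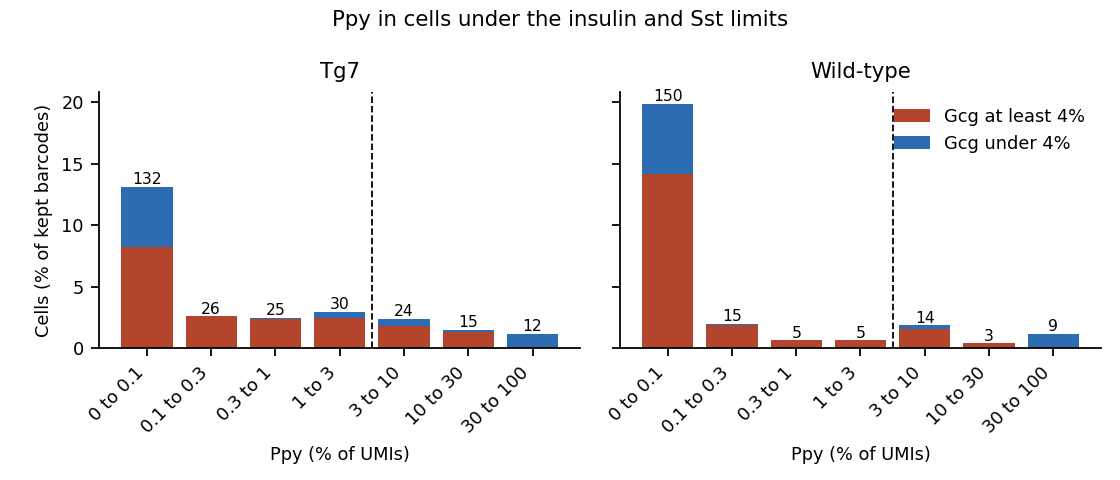
Cells under the insulin and Sst limits (264 Tg7, left, and 201 Wild-type, right) by Ppy share of UMIs (x axis, bins in percent); bars give percent of kept barcodes (y axis), coloured by Gcg at 4% or more or under it, with the number of cells above and the 3% limit as a dashed line. The bin from 1% to 3% holds 30 Tg7 cells and 5 Wild-type cells, and the bin from 30% holds mostly cells with Gcg under 4%.

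Cells with both hormones were the more numerous but carried less Ppy each. Ppy was 3.04% of UMIs in the lowest Gcg-high Tg7 cell, 8.44% in the median and 31.0% in the highest, and 3.0%, 33.6% and 48.1% in Gcg-low Tg7 cells. In Wild-type it was 3.05%, 5.65% and 36.9% in Gcg-high cells and 4.42%, 41.0% and 54.5% in Gcg-low cells. So a typical Gcg-low cell devoted over 30% of its UMIs to Ppy in both libraries, and the 2 classes overlapped in range. Ppy reached 30% of UMIs in 11 of 19 Tg7 and 8 of 10 Wild-type Gcg-low cells, but in only 1 Gcg-high cell of each library. Gcg itself had a median of 33.8% in Gcg-high Tg7 cells (5.96% to 51.4%) and 35.1% in Gcg-high Wild-type cells (4.64% to 48.5%). In α-cells, defined by Gcg at 4% or more with Ppy under 3% and the same insulin and Sst limits, the Gcg medians were 44.9% in Tg7 and 41.4% in Wild-type. Insulin mRNA was low in most Ppy cells: its median was 0.0630% in Tg7 and 0.161% in Wild-type Ppy cells, against 0.0703% and 0.188% in cells under all 4 hormone limits. In 4 Tg7 cells and no Wild-type cell it was at 1% or more, 1.11% to 2.67%.

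Pyy, which the rule did not use, followed Ppy closely. Its median was 7.48% of UMIs in Gcg-high Tg7 cells (0.00864% to 20.1%) and 17.1% in Gcg-low Tg7 cells (0.162% to 27.9%), and 4.17% (0.873% to 13.6%) and 10.8% (1.03% to 21.3%) in the same classes of Wild-type. Across cells the shares of Ppy and Pyy had a Spearman rho of 0.74 over the 51 Tg7 cells and 0.81 over the 26 Wild-type cells. Gcg ran the other way, with rho of −0.42 and −0.38 against Ppy. These shares have a common denominator and come from 1 library each, so they are descriptions only. The balance within the neighbouring pair shifted with cell type. Pyy made up a median of 41.3% of the Ppy plus Pyy UMIs of a Gcg-high Tg7 cell and 34.1% of a Gcg-low Tg7 cell, and 37.1% and 23.5% of the same classes in Wild-type. In α-cells with at least 10 such UMIs it made up 89.4% in Tg7 (146 of 158 cells) and 96.0% in Wild-type (115 of 131 cells), and in δ-cells, defined by Sst, 88.4% and 78.2%. The Ppy limit itself lowers the Pyy part of the pair in Ppy cells, since α-cells and δ-cells were required to be under it.

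**Figure D2:**
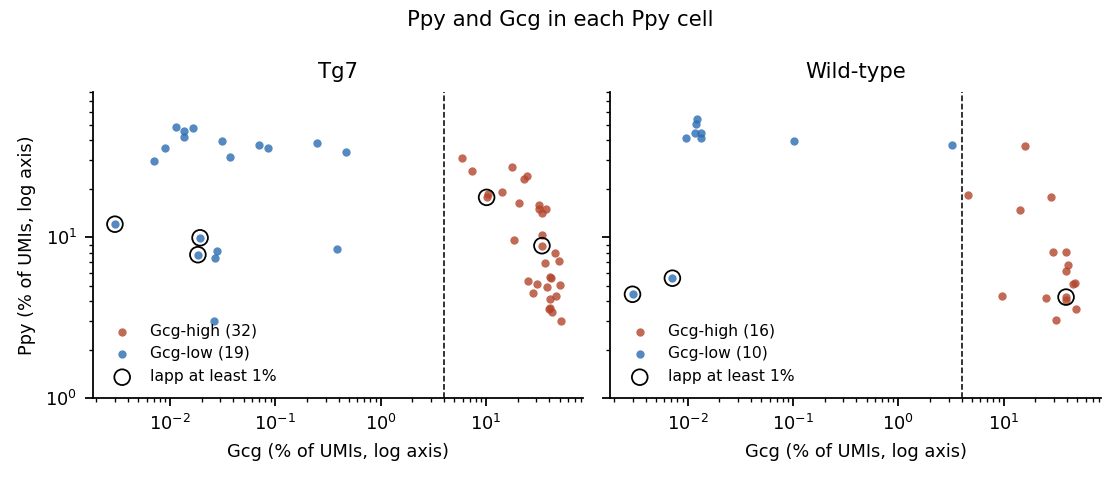
Ppy share (y axis, percent of UMIs, log axis) against Gcg share (x axis, percent of UMIs, log axis) of each Ppy cell, Tg7 left and Wild-type right, with the Gcg split at 4% as a dashed line, cells with Iapp at 1% or more ringed, and cells without a Gcg UMI drawn at the left edge. Most Gcg-low cells sit above 30% Ppy (11 of 19 in Tg7 and 8 of 10 in Wild-type), and 1 Gcg-high cell of each library does.

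A few Gcg-low cells stood apart from the rest. Iapp, the mRNA of amylin, was at 1% of UMIs or more in 3 of 19 Tg7 Gcg-low cells (15.8%, 3.38% to 39.6%) and in 2 of 10 Wild-type ones (20%, 2.52% to 55.6%). In these cells Ppy was only 7.79% to 12.0% of UMIs in Tg7, and in Wild-type 4.42% to 5.57%, while Iapp was 3.60% to 15.0% and 5.96% to 10.8%, and mitochondrial shares were raised at 7.66% to 7.91% in Tg7 and 12.9% in Wild-type. Ppp1r1a, a protein phosphatase inhibitor abundant in β-cells, was at 5.24 UMIs per 10000 non-hormone UMIs in the Iapp-carrying Tg7 cells and 5.37 in the Wild-type ones, against 0.0844 and 0.231 in the other Gcg-low cells. tdTomato had no UMI in them, but even in β-cells it was only at 0.221 in Tg7 and 0.469 in Wild-type per 10000 non-hormone UMIs. The doublet caller marked 1 of the 2 Wild-type cells. A further Tg7 Gcg-low cell, with 3799 UMIs and Ppy at 3.0%, held 217 of the 230 immune-marker UMIs of its class, among them 84 of Cd74 and 20 of Lyz2, and no Tspan8. These cells were kept in all counts, and results that rest on them are given without them.

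Genes that follow Ppy and genes known for PP cells were described next. Since Ppy chose the cells, the genes that follow it are no check of the label. Over all cells that passed the quality limits, 5 genes followed the Ppy share most closely in their share of non-hormone UMIs. They were Pyy (rho 0.68 over 1006 Tg7 and 0.61 over 755 Wild-type cells), Tspan8 (0.51 and 0.41), Etv1 (0.45 and 0.44), Dbpht2 (0.44 and 0.42) and Kcnk3 (0.39 and 0.47). Tspan8 encodes a tetraspanin of the cell surface, Etv1 an ETS transcription factor and Kcnk3 a two-pore-domain potassium channel. Of the other PP cell genes listed, Meis2, a homeobox factor, was detected in both classes, while Aqp3, Slc6a4 and Abcc9 were at 0 UMIs in every Ppy cell and Id4, Fxyd2, Sertm1, Cmtm8 and Slitrk6 lay between 0.0185 and 0.222 UMIs per 10000 non-hormone UMIs in either library. Slitrk6 was lower there, at 0.0927 in Tg7 and 0.168 in Wild-type, than in δ-cells, at 1.22 and 1.04. The 15 α-cell genes other than Gcg summed to 462 per 10000 in Gcg-high Tg7 and 410 in Gcg-high Wild-type cells, and to 129 and 107 in Gcg-low cells. The δ-cell list summed to 12.0 and 14.1 in Gcg-high and 4.68 and 4.85 in Gcg-low cells, mostly Rbp4. The 11 PP cell genes other than the hormones summed to 13.5 in Gcg-high Tg7 and 13.7 in Gcg-high Wild-type cells and to 17.8 and 21.4 in Gcg-low cells, against 10.2 and 9.21 in α-cells and 17.2 and 15.8 in δ-cells. Etv1, for one, had a UMI in 153 of 158 Tg7 and 127 of 131 Wild-type α-cells. Of 5 PP genes measured against α-cells only Tspan8 was past 2-fold in both libraries, and of 3 measured against δ-cells none was. Levels from here on are UMIs per 10000 UMIs outside the 7 hormone genes (Ins1, Ins2, Iapp, Gcg, Sst, Ppy and Pyy), and ratios are ratios of such levels summed over the cells of a class.

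Gcg-high and Gcg-low Ppy cells differed mainly in α-cell genes and in a small set of surface and secreted proteins. With at least 20 UMIs in each library, 1917 genes were measured. Of these 25 were at least 2-fold higher in Gcg-high cells in both libraries (1.3% of those measured) and 19 were at least 2-fold lower (0.991%). Scaled to all UMIs, which shifts every log2 ratio by 0.03 in Tg7 and 0.15 in Wild-type, the split was 31 higher and 14 lower. The median gene had a log2 ratio of −0.04. Of 8 measured α-cell genes 4 were past 2-fold higher in both libraries, among them Ttr, Slc7a2 and Wnk3, and none lower, and the list's median log2 ratio was 1.68.

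Ttr, the thyroxine and retinol carrier transthyretin and one of the most abundant α-cell mRNAs, ranged from 45.8 to 928 in Gcg-high Tg7 cells with a median of 286, and from 5.35 to 577 in Gcg-low Tg7 cells with a median of 28.8. In Wild-type it ranged from 43.1 to 828 (median 304) in Gcg-high and from 4.42 to 152 (median 48.9) in Gcg-low cells. Summed levels were 5.46-fold higher in Gcg-high cells in Tg7 (5.11 to 5.83) and 5.52-fold in Wild-type (5.08 to 6.01). Most Gcg-high cells lay above most Gcg-low cells, but the ranges overlapped, and the top Gcg-low Tg7 value belonged to a cell with more Pyy (27.9%) than Ppy (8.47%).

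Higd1a, a mitochondrial protein induced by low oxygen, separated the classes by presence. It was found in all 32 Gcg-high Tg7 cells and all 16 Gcg-high Wild-type cells, but in 2 of 19 and 2 of 10 Gcg-low cells. No δ-cell had a UMI (0 of 13 Tg7 and 0 of 20 Wild-type). Thinned to 2000 non-hormone UMIs per cell, it was found in 19 of 32 and 14 of 16 Gcg-high cells, and in 2 of 19 and 1 of 10 Gcg-low cells. Summed levels were 4.97 in Gcg-high and 0.489 in Gcg-low Tg7 cells (10.2-fold, 4.84 to 25.6), and 5.55 and 0.560 in Wild-type (9.91-fold, 4.34 to 27.9). In α-cells it stood at 5.46 in Tg7 and 4.36 in Wild-type, near the Gcg-high level.

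Slc30a8, the zinc transporter ZnT8 of secretory granules, was 4.17-fold (2.46 to 7.61) and 9.47-fold (4.61 to 22.6) higher in Gcg-high cells of Tg7 and Wild-type. The amino acid transporter gene Slc7a2 was 4.41-fold and 6.11-fold higher. Rbp4, the retinol-binding protein that pairs with transthyretin in blood, was 2.63-fold (2.0 to 3.52) and 3.28-fold (2.30 to 4.79) higher.

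On the other side stood Tspan8, the folate receptor gene Folr1, the osteopontin gene Spp1, the clusterin gene Clu and the tetraspanin gene Cd9. Tspan8 had a median of 0.988 in Gcg-high Tg7 cells (0 to 7.72) and 6.95 in Gcg-low Tg7 cells (0 to 22.6), and 1.35 (0 to 14.2) and 7.40 (2.2 to 25.7) in Wild-type. The classes overlapped, but the summed level was 3.52-fold lower in Gcg-high cells in Tg7 (2.62 to 4.73) and 3.61-fold lower in Wild-type (2.46 to 5.43). A Tspan8 UMI was found in 20 of 32 Tg7 and 11 of 16 Wild-type Gcg-high cells, in 16 of 19 and 10 of 10 Gcg-low cells, and in 22 of 158 and 18 of 131 α-cells. Thinned, these were 10 and 7 Gcg-high cells, 10 and 8 Gcg-low cells, and 4 of 146 and 5 of 129 α-cells.

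Folr1 had a median of 1.17 in Gcg-high Tg7 cells (0 to 12.6) and 6.57 in Gcg-low Tg7 cells (0 to 22.6), and 1.24 (0 to 9.02) and 7.09 (0 to 17.1) in Wild-type. Its summed level was 3.82-fold lower in Gcg-high cells of Tg7 (2.87 to 5.09) and 3.11-fold lower in Wild-type (2.01 to 4.92). Clu was 2.74-fold (2.05 to 3.66) and 3.74-fold (2.28 to 6.36) lower in Gcg-high cells. The stress-induced chaperone gene Hspa1b was 2.97-fold and 7.28-fold lower, but 61 of its 89 UMIs in Wild-type Gcg-low cells lay in the 2 Iapp-carrying cells. Iapp was 5.08-fold and 7.17-fold lower, and without the Iapp-carrying cells of both classes the Wild-type ratio turned to 1.74 in favour of Gcg-high cells.

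Apart from epithelial genes, other gene groups held few or no genes past 2-fold, while of all measured genes 1.3% were higher and 0.991% lower. Etv1 had a ratio of Gcg-high over Gcg-low cells of 1.15 in Tg7 (0.919 to 1.45) and 1.10 in Wild-type (0.810 to 1.49), and Meis2 of 0.80 and 0.729. None of 15 measured prohormone processing and granin genes, 11 exocytosis genes or 19 genes of the unfolded protein response was past 2-fold in both libraries. Of 9 epithelial genes Tspan8, Cd9 and Clu were, all lower in Gcg-high cells, a larger part than among all measured genes.

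**Figure D3:**
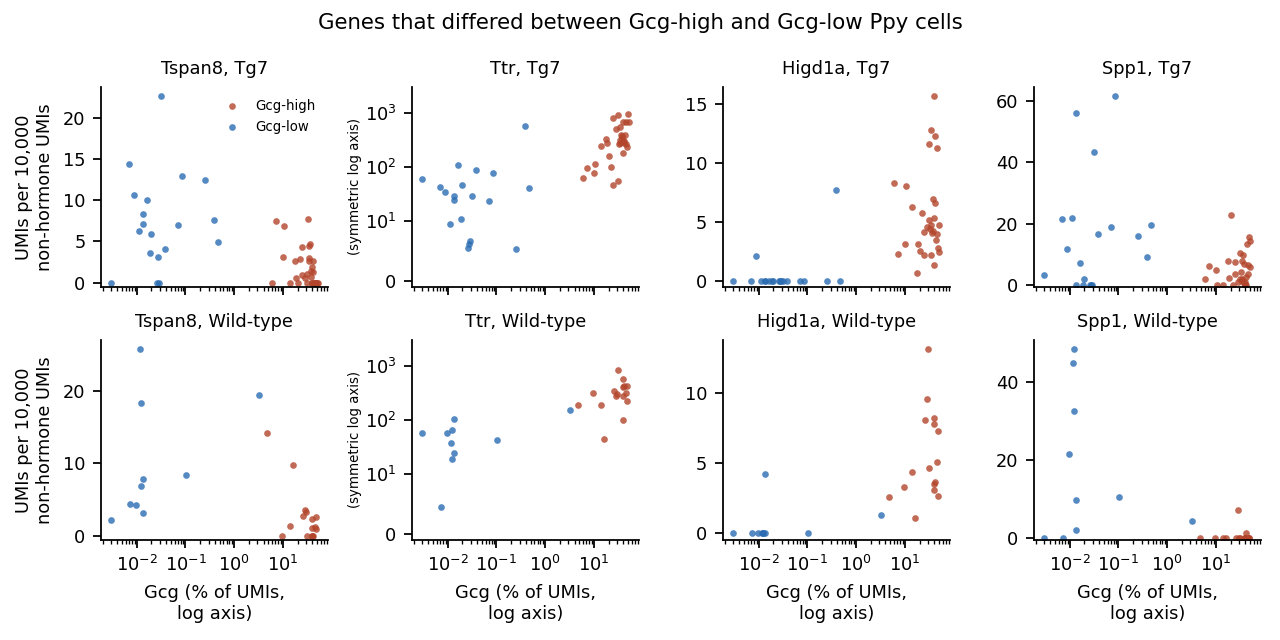
Levels of Tspan8, Ttr, Higd1a and Spp1 in each Ppy cell (y axis, UMIs per 10000 non-hormone UMIs, with a symmetric log axis for Ttr) against its Gcg share of UMIs (x axis, percent, log axis), Tg7 above and Wild-type below, with cells without a Gcg UMI drawn at the left edge. Ttr and Higd1a climb with Gcg (rho 0.76 and 0.69 in Tg7, 0.77 and 0.74 in Wild-type), while Tspan8 declines (rho −0.50 and −0.62).

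Set against α-cells of the same library, the Ppy cells were close to them in most genes. Of 7105 genes measured, 55 were at least 2-fold higher in Ppy cells in both libraries (0.774%) and 46 at least 2-fold lower (0.647%). Scaled to all UMIs, a log2 shift of −0.09 in Tg7 and −0.22 in Wild-type, the split was 31 higher and 80 lower, and centred on the median gene it was 43 and 60. Ppy, Pyy and Gcg are left out of these counts. Tspan8 led those that were higher, at 14.5-fold in Tg7 (9.97 to 21.6) and 25.7-fold in Wild-type (17.2 to 39.8). Folr1 was 5.76-fold (4.47 to 7.46) and 7.32-fold (5.40 to 9.97) higher, and the sulfotransferase gene Sult1d1 4.45-fold (2.51 to 8.12) and 3.34-fold (1.84 to 5.95). The small heat shock protein gene Hspb1 was 2.84-fold and 2.63-fold higher, and Cd9 2.54-fold and 3.58-fold. Pyy was 6.59-fold and 13.5-fold higher. The Iapp ratio of 3.76 in Tg7 came from the Iapp-carrying cells of both Gcg classes, and without them it was 0.471.

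Lower in Ppy than in α-cells were Ttr (2.47-fold in Tg7 and 2.82-fold in Wild-type), the glutamine transporter gene Slc38a5 (6.12-fold and 4.0-fold), the uroplakin gene Upk3a (5.25-fold and 5.29-fold), the calcium channel regulator Rem2 (2.54-fold and 8.57-fold) and the oxytocin receptor gene Oxtr (2.27-fold and 2.54-fold). The same held for Samd5, Rpia, Ptprk and Midn. Of 13 measured α-cell genes 5 were past 2-fold lower in both libraries and none higher. Of 19 epithelial genes 4 were higher (Tspan8, Cd9, Clu and Pard3, a polarity protein) and none lower. None of 24 genes of the unfolded protein response was past 2-fold in both.

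The 2 classes held different parts of this difference. Gcg-low cells differed from α-cells in 154 genes higher (2.32% of 6648) and 169 lower (2.54%). Gcg-high cells differed in 19 higher (0.279% of 6820) and 45 lower (0.66%). Such counts, here and for the gene lists below, rest on unequal depth. The summed non-hormone UMIs of Tg7 were 143227 for Gcg-low and 396390 for Gcg-high cells. Those of Wild-type were 107175 and 131550. The minimum of 20 UMIs is taken over both classes, so α-cells alone can meet it. The part of depth in these counts was not tested. Tspan8 was 8.68-fold (5.74 to 13.4) and 11.8-fold (7.05 to 20) higher in Gcg-high cells than in α-cells in Tg7 and Wild-type, and 30.5-fold and 42.8-fold higher in Gcg-low cells. Ttr was 1.94-fold and 1.78-fold lower in Gcg-high cells, and 10.6-fold (9.90 to 11.3) and 9.84-fold (9.10 to 10.7) lower in Gcg-low cells. For both genes the summed level of the Gcg-high cells lay between the Gcg-low cells and the α-cells in both libraries. Of the α-cell genes 7 of 12 were past 2-fold lower in Gcg-low cells, among them the Iroquois factors Irx1 and Irx2. In Gcg-high cells only 1 of 13, Slc38a5, was. No one of 26 transcription factors, 17 prohormone and granin genes, 20 exocytosis genes or 24 ion channel genes was past 2-fold between Gcg-high cells and α-cells in both libraries.

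**Figure D4:**
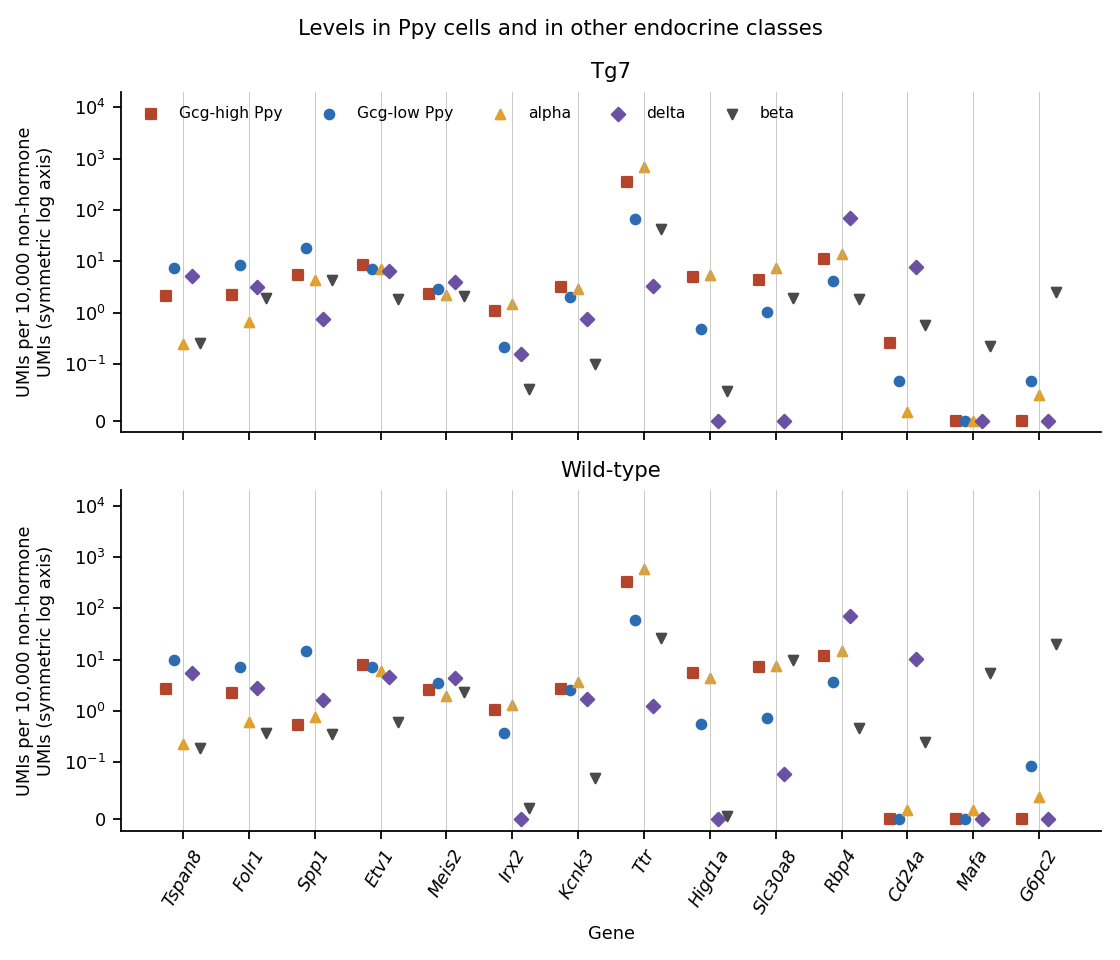
Summed levels of selected genes (y axis, UMIs per 10000 non-hormone UMIs, symmetric log axis) in Gcg-high Ppy, Gcg-low Ppy, α-, δ- and β-cells, Tg7 above and Wild-type below. Tspan8 is at 2.14 in Tg7 and 2.74 in Wild-type Gcg-high cells, 7.54 and 9.89 in Gcg-low cells, and 0.247 and 0.231 in α-cells, while Ttr is highest in α-cells.

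δ-cells were few (13 Tg7 and 20 Wild-type) and shallow, with medians of 6548 and 7593 UMIs, which limits what could be measured. Of 3055 genes, 55 were at least 2-fold higher in Ppy cells than in δ-cells in both libraries (1.8%) and 130 lower (4.26%). Scaled to all UMIs, a log2 shift of −0.59 in Tg7 and −0.67 in Wild-type, the split was 23 and 542, and centred on the median gene 66 and 99. Ttr was 83.3-fold and 163-fold higher in Ppy cells, and Higd1a at least 8.26-fold and at least 13.8-fold, with no UMI in δ-cells. Cd24a, a surface glycoprotein, was 38.2-fold lower in Tg7 Ppy cells (19.6 to 81.2) and at least 83.2-fold lower in Wild-type ones, and Rbp4 7.74-fold (6.80 to 8.81) and 8.80-fold (7.54 to 10.3) lower. Tspan8 did not set Ppy cells off from δ-cells, where its level was 5.19 in Tg7 and 5.42 in Wild-type, between those of Gcg-high and Gcg-low cells.

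Against β-cells, defined by insulin at 3% or more with Ppy, Gcg and Sst under their limits, 197 of 10997 genes were at least 2-fold higher in Ppy cells in both libraries (1.79%) and 613 lower (5.57%). Scaled to all UMIs, a log2 shift of −0.21 in Tg7 and 0.62 in Wild-type, the split was 221 and 402, and centred on the median gene 282 and 423. Higd1a was 71.9-fold (53.2 to 98.8) and 549-fold (226 to 1737) higher in Ppy cells, and Kcnk3 28.5-fold (22.2 to 36.9) and 37.1-fold (25.6 to 53.6). G6pc2, the glucose-6-phosphatase subunit of β-cells, had 1 UMI in the Ppy cells of each library, 138-fold and 483-fold lower. Of 13 β-cell genes 11 were past 2-fold lower in both libraries, and 7 of 25 genes of the unfolded protein response were, with none higher. α-cell genes were higher in 6 of 12, among them Irx2 and Ttr. β-cells differ between the libraries by the transgene itself, so each ratio was taken within its own library.

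Between genotypes the Ppy cells differed in few well-covered genes. In Tg7 over Wild-type Ppy cells, 5278 genes had at least 20 UMIs over both libraries, of which 236 were at least 2-fold higher (4.47%) and 157 at least 2-fold lower (2.97%). Of the 2438 genes with at least 50 UMIs, 34 were higher and 24 lower. The median gene had a log2 ratio of −0.01. In Gcg-high cells 281 of 3923 genes were higher in Tg7 (7.16%) and 151 lower (3.85%), or 242 and 198 when scaled to all UMIs. In Gcg-low cells 89 of 2109 were higher (4.22%) and 86 lower (4.08%).

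Among the PP cell genes, Etv1 had a ratio of 1.04 (0.874 to 1.25), and Meis2 of 0.829 (0.619 to 1.12). Tspan8 was at 0.601 (0.482 to 0.752) over all Ppy cells, with 0.784 among Gcg-high and 0.762 among Gcg-low cells. Pooled ratios carry a difference in mix, since Gcg-low cells supplied 26.5% of the non-hormone UMIs of Tg7 Ppy cells and 44.9% of those of Wild-type Ppy cells. None of the 3 measured genes of the PP list was past 2-fold. Pyy had ratios of 1.83 in Gcg-high and 1.37 in Gcg-low cells.

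Tm4sf4, a four-transmembrane protein of the islet cell surface, was lower in Tg7 in both Gcg classes. It had 269 UMIs in 47 of 51 Tg7 cells and 271 in 26 of 26 Wild-type cells, levels of 4.99 and 11.4, 2.28-fold lower in Tg7 (1.92 to 2.71). In Gcg-high cells it was 1.95-fold lower (1.54 to 2.46) and in Gcg-low cells 2.50-fold (1.89 to 3.33). The other classes pointed the same way: levels were 5.42 in Tg7 and 9.40 in Wild-type α-cells, 3.81 and 6.06 in δ-cells, and 4.07 and 8.94 in β-cells. Fxyd3, a regulator of the sodium pump, was 2.62-fold lower in Tg7 (1.58 to 4.39), at 0.574 against 1.51. By class it was 3.87-fold lower in Gcg-high cells (1.82 to 8.42) and 1.42-fold in Gcg-low cells (0.688 to 2.92), which is within counting error.

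Txnip, the glucose-induced thioredoxin inhibitor, was higher in Tg7 at 1.87 against 0.670 (2.79-fold, 1.64 to 5.07), with 2.62-fold in Gcg-high and 2.74-fold in Gcg-low cells. It was higher in Tg7 in α-cells (1.92 against 1.18) and β-cells (6.78 against 3.42) as well. Gadd45g, a stress-induced growth arrest gene, had 128 UMIs in Tg7 against 18 in Wild-type, 3.15-fold higher (1.91 to 5.48). By class it was 2.16-fold higher in Gcg-high cells (1.27 to 3.91) and 8.98-fold in Gcg-low cells (2.23 to 78.4, on 24 against 2 UMIs), while α-cells had levels of 2.52 and 3.37. Nfkbiz, a nuclear inhibitor of NF-κB, was 2.78-fold higher (1.46 to 5.82) and Hbp1, a cell cycle repressor, 3.39-fold (1.44 to 9.72). Dapl1 was 2.83-fold higher (1.63 to 5.25), and α-cells had 4.43 in Tg7 and 0.965 in Wild-type. The rest of the highest were Dctn6, Kdm5a, Vmp1 and Lrrc59.

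Some ratios rested on single cells. Gast, the gastrin mRNA, had 96 UMIs in Tg7 Ppy cells and 0 in Wild-type ones, at least 14.2-fold higher, but 88 of the 96 lay in 1 cell and 7 Tg7 cells had any. Hspa1b was 4.20-fold lower in Tg7 (3.01 to 5.92), with 55 of the 104 Wild-type UMIs in 1 cell. Ins1 was 2.62-fold lower in Tg7, although 113 of its 184 Tg7 UMIs lay in 1 cell, and in Gcg-low cells alone its ratio was 1.02.

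**Figure D5:**
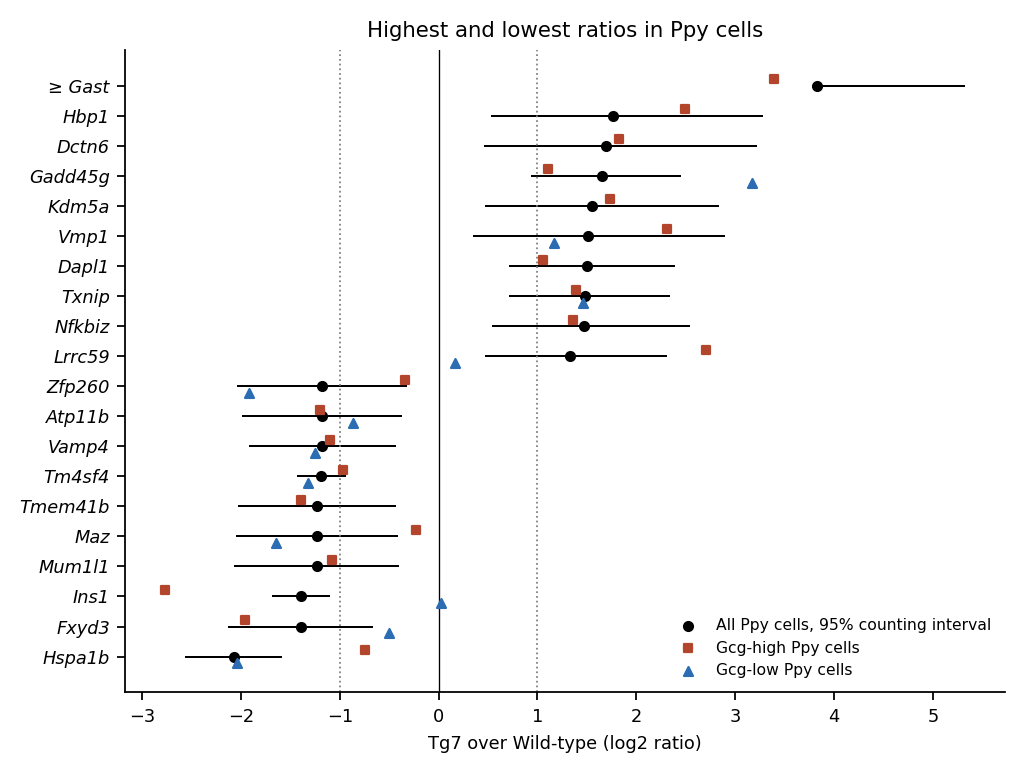
Log2 ratio of Tg7 over Wild-type (x axis) for the 10 highest and 10 lowest named genes in all Ppy cells (black, with exact 95% counting intervals as lines), and in Gcg-high and Gcg-low cells where measured; dotted lines mark 2-fold. Tm4sf4 and Txnip have alike values in the classes, Ins1 and Gadd45g do not, and the Gast point is a lower bound whose line has no true upper end.

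Spp1 differed by genotype in the Gcg-high cells. A UMI was found in 26 of 32 Gcg-high Tg7 cells and 2 of 16 Gcg-high Wild-type cells (17 and 1 when thinned), with medians of 3.73 (0 to 22.8) and 0 (0 to 7.20). Summed levels were 5.32 and 0.532, 10-fold higher in Tg7 (4.77 to 25.2). Gcg-low cells had 17.9 in Tg7 and 14.9 in Wild-type (1.20, 0.979 to 1.47), and a UMI in 14 of 19 and 8 of 10 cells. α-cells had 4.28 and 0.750, and β-cells 4.39 and 0.36, so these classes too had the higher level in Tg7. Spp1 is also a marker of pancreatic ducts, and 4 of 7 ductal genes had a UMI in Gcg-high Tg7 cells and 2 of 7 in Gcg-high Wild-type cells, with Cftr, Krt19 and Mmp7 at 0 in both.

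Most gene lists held few genes past 2-fold between the genotypes. Over all genes measured 4.47% were higher and 2.97% lower, and in lists this short 1 or 2 genes can exceed these shares. Some calls rested on few UMIs, such as Foxp2 with 12 in each library. In all Ppy cells, none of 23 measured genes of the unfolded protein response was past 2-fold in Tg7 (median log2 ratio 0.06), none of 6 cell cycle genes, and 1 of 17 prohormone processing and granin genes, Vgf, which was higher. Of 19 exocytosis genes Dnajc5 and Rab3d were higher and Unc13a lower. Of 26 transcription factors Irx1 was higher (29 UMIs in Tg7 against 4 in Wild-type) and Foxp2 lower. Of 10 genes listed for epithelial-mesenchymal transition and matrix none was higher and 2 were lower, Zeb1 among them. Col1a2, a collagen gene from the separate list of mesenchymal and glial markers, was higher in Tg7. It had 23 UMIs in 11 Tg7 cells, against 2 in Wild-type Gcg-low cells and 0 in Wild-type Gcg-high cells. Of 15 epithelial genes Cdh1 was higher and Pard3 and Tjp1 lower. Of 11 genes of immature endocrine cells, Gast and Sox4 were higher and none lower. Of 5 measured immune genes 4 were higher in Tg7, which is the cell with immune markers described above.

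The immediate early genes, induced within minutes by stress or dissociation, separated the genotypes in Gcg-low cells. There 5 of 14 measured genes were past 2-fold lower in Tg7, against 4.08% of all genes measured in that class, and none higher, with a median log2 ratio of −0.71 against −0.03 for all genes. Fos was at 5.86 in Tg7 and 14.6 in Wild-type (2.48-fold lower, 1.89 to 3.28), Jun at 6.49 and 13.8 (2.13-fold lower), Ier2 at 0.908 and 2.89 (3.19-fold lower) and Atf3 at 2.44 and 5.88 (2.41-fold lower). The difference stayed without the Iapp-carrying cells for these 4 genes, with Fos at 3.38 and 11.3, Jun at 5.40 and 11.3, Ier2 at 0.929 and 3.46 and Atf3 at 2.62 and 6.11. For Hspa1b the levels without those cells were 2.45 and 3.23, against 2.02 and 8.30 with them. Gcg-high cells did not share this: Fos was at 8.17 in Tg7 and 10.5 in Wild-type, Jun at 8.38 and 8.97, and Atf3 at 14.3 and 9.43. The difference between the classes was not tested.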

How the data were processed

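Islets of 12-week-old male Tg7 and Wild-type mice were measured by 10x single-cell RNA-seq, 1 library each. The authors deposited filtered UMI count matrices of 31054 features per library, which are raw counts used here as deposited; per the submitters' processing notes they were made with bcl2fastq 2.17.1.14 and Cell Ranger 3.0.2, which runs STAR, on mm10. The study then used Seurat and DoubletFinder; no deposited annotation was used here, so all classes were rebuilt from hormone shares and may differ from those of the study. The sources used here do not give the annotation version.

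Barcodes under 1000 UMIs (65 Tg7 and 29 Wild-type) or over 20% mitochondrial UMIs (100 and 98) were left out. Doublets were called with Scrublet (scanpy 1.11.5, an assumed rate of 0.8% per 1000 barcodes), which marked 14 Tg7 and 15 Wild-type of the kept barcodes, and were kept in the main values. UMIs were summed per class and library and divided by the UMIs outside 7 hormone genes, because these genes take a large and unequal part. Genes with at least 20 UMIs over both classes were measured, and comparisons within a library needed this, and the same direction past 2-fold, in both libraries. Ratios carry conditional exact binomial intervals and shares Clopper-Pearson intervals, at 95%. A gene at 0 in 1 class is given as a bound, with 3 UMIs over that class as the floor. Where detection was compared, cells were also thinned to 2000 non-hormone UMIs, leaving out shallower cells (no Ppy cell, and 12 Tg7 and 2 Wild-type α-cells). Spearman correlations are over cells and carry no p-value.

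Named genes were the members of the hormone and PP lists, the 10 highest and 10 lowest ratios of Tg7 over Wild-type and of Ppy over α-cells (5 and 5 in the other comparisons) with at least 50 UMIs and 5 cells, and up to 4 and 2 members per list of 25 gene lists, leaving out mitochondrial, ribosomal and unnamed genes. Some genes that the rule names are not reported here. Genes singled out beyond these (Clu, Cd9, Tm4sf4 across classes, Spp1 by class, the cells with Iapp or immune markers) were chosen after their values were seen. The members and lists were chosen with earlier results of these data known. Alternatives changed the limits of the rule, the scaling, the UMI minimum, doublet removal and single members. Python 3.11.15, numpy 2.4.6, scipy 1.17.1, pandas 2.3.3 and matplotlib 3.10.9 were used, and the code was tested on simulated data.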

Additional observations from a re-analysis of the deposited data

Results flagged for a closer look

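For 6 genes the ratios of Ppy cells over β-cells pointed in opposite directions in the 2 libraries, and for each of them the difference between the libraries was not tested. Cldn3, Gadd45g and Vgf were higher in Ppy cells in Tg7 and lower in Wild-type. Cldn3, a tight junction claudin, had a ratio of 2.63 in Tg7 and 0.325 in Wild-type. Gadd45g had 3.48 in Tg7 and 0.184 in Wild-type. Vgf, a granin-like neuropeptide precursor, had 14.7 in Tg7 and 0.224 in Wild-type, from 22 UMIs in Tg7 Ppy cells, 11 of them in 1 cell, and 2 UMIs in Wild-type ones. The others ran the opposite way. The transcription factor gene Foxp2 had 0.328 in Tg7 and 4.90 in Wild-type, Mum1l1 had 0.416 and 2.13, and Sult1d1 had 0.440 and 2.33.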

How the results depend on the processing

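No paired analysis was possible because each group is 1 library. With Ppy at 1% or more, the cells were 8.05% of Tg7 cells (6.45% to 9.91%) and 4.11% of Wild-type cells (2.81% to 5.78%), and these intervals no longer overlap; at 10% or more they were 2.68% in Tg7 and 1.59% in Wild-type, and 33.3% of the Wild-type ones were Gcg-high. Of 24 values of the Gcg-high share this was the only one that moved.

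Counts of genes past 2-fold depended mostly on the UMI minimum. With at least 50 UMIs and with no minimum they were 58 and 1553 for Tg7 over Wild-type in all Ppy cells (main 393), 17 and 1525 in Gcg-low cells (175), 58 and 1525 in Gcg-high cells (432), 14 and 306 for Gcg-high over Gcg-low cells (44), 39 and 270 for Ppy over α-cells (101), and 48 and 572 for Ppy over δ-cells (185). With Ppy at 1% or more the Gcg-low count was 332. With Ppy at 10% or more the Gcg-high count was 277, that of Gcg-high over Gcg-low cells 11 and that of Ppy over α-cells 214. Scaled to all UMIs, Ppy over δ-cells gave 565. The 810 genes of Ppy over β-cells stayed within 1.5 times under all alternatives run.

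Of 1394 ratios of named genes under alternatives 1198 moved by less than counting error, 191 moved and 5 reversed. The reversed ones were Ins1 in Tg7 over Wild-type (1.02 in Gcg-low cells alone), Iapp over α-cells in Tg7 (0.841 with insulin under 1%, 0.471 without the Iapp-carrying cells), Gcg over β-cells in Tg7 (0.328 for Gcg-low cells alone) and Iapp in Gcg-high over Gcg-low Wild-type cells (1.74 without the Iapp-carrying cells). The settings without Iapp-carrying or immune-marker cells were chosen after seeing the data. Most Ppy classes hold under 20 cells, so genes under 20 UMIs could not be compared.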
